A study of Mus musculus with 10 samples.

Results

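Alternative exons whose 2 inclusion junctions, taken as a mean, outshone the skipping junction in every tissue measured are described here. They were picked from 3126 alternative splicing events of an array that was hybridised with RNA of 10 mouse tissues. Each event has a probe for the alternative exon (A) and for each of the exons that flank it (C1 and C2). Each also has probes across the junctions C1:A and A:C2, which form when the exon is included, and across C1:C2, which forms when it is skipped. These roles are read from the probe names, since the labels speak only of exon-body and splice-junction probes. The remaining kind of probe, INT, has a role that the sources used here do not state. An event was kept when C1 and C2 both read at least 2.1 in all 10 tissues and the junction index was at least 0.5 in all 10. That index subtracts C1:C2 from the average of the inclusion junctions C1:A and A:C2. The flank condition left 656 events, called broadly detected below, and the index condition left 125 exons, 4.0% of all events and 19.1% of the broadly detected ones. Another 232 events passed the index condition with a flank under the floor and are not members.

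The samples came from CD1 mice, an outbred strain, and covered testis, spleen, salivary, muscle, heart, brain, lung, liver, kidney and intestine. Each was 1 sample of pooled total RNA, and the labels give no treatment, genotype change, age or number of animals. Pooling hides the spread between animals, and with 1 sample per tissue no difference below was tested. Values are the authors' processed probe values, in units of a scale that has no stated base and does not go below 0 as deposited. They are printed after each array was centred on its median. Array medians as deposited lay between 2.04 and 2.19, and 0.635% to 3.33% of the probe values of an array were exactly 0. The events carry numbers (Ben1 and so on) without gene names, so the tissue identities could not be set against marker genes, and the table does not show which events share a gene. Muscle and spleen shared some high single probes, described with the events concerned.

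A cassette exon is spliced in when the splice sites on both of its sides are joined to its neighbours, and is skipped when the neighbours are joined directly. Exons that most transcripts contain usually have strong splice sites and are recognised in most cell types, whereas tissue-regulated exons depend on splicing factors that differ between cells. On a junction array the inclusion and skipping products are read by separate probes, while the exon-body probe A reads the exon whichever junctions it takes part in.

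The rule used 5 of the 7 probe kinds, so the junction index and flank values of the members describe the choice and support nothing. The probes differ in how brightly they respond to the same amount of RNA. A positive index therefore does not give the share of transcripts that include the exon, and only changes of the same probe or index between tissues are free of this. The mean index over the tissues ran from 0.69 to 2.97 among the 125 exons, with a median of 1.46 and quartiles of 1.1 and 1.72. In the median exon it spanned 1.15 units between its lowest and its highest tissue. The exons closest to the threshold were Ben3057, whose index fell to 0.50 in testis, and Ben2689, at 0.51 in heart. Just outside were Ben4006, whose lowest index rounds to 0.50 in salivary, and Ben2990, which also rounds to 0.50, in muscle. At the flank floor, Ben2422 (lowest flank 2.11) and Ben73 (2.12) were just inside, and Ben3376 and Ben3604 (both 2.08) just outside.

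Ben3845 had the highest mean index. Its index was 2.33 in brain, 3.37 in heart, 2.82 in intestine, 3.53 in kidney, 4.09 in liver, 1.99 in lung, 3.80 in muscle, 2.42 in salivary, 2.79 in spleen and 2.58 in testis. Its mean flank level (mean of C1 and C2) was 5.44, the highest mean among the members, and its A probe read from 4.16 in lung to 7.05 in kidney. Over the same tissues C1:C2 moved only between 1.26 in spleen and 2.58 in kidney. Ben2773 followed with a mean index of 2.84 at a flank level of 3.30. Its C1:C2 probe was below 1.5 in all tissues but heart, where it read 2.26, and its index was lowest there, at 1.93.

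The lowest mean indices belonged to Ben3002 and Ben4274, whose skipping junctions were bright. In Ben3002 the C1:C2 probe read 3.32 in brain, 4.05 in heart, 3.58 in intestine, 4.31 in kidney, 4.83 in liver, 3.05 in lung, 3.99 in muscle, 3.12 in salivary, 3.84 in spleen and 4.83 in testis. Its A probe rose and fell in parallel, from 3.43 in lung to 5.43 in liver, and the index stayed between 0.53 in spleen and 1.01 in brain. In Ben4274 C1:C2 read from 2.13 in salivary to 3.82 in spleen and the index from 0.54 in muscle to 1.04 in brain. In both events the index was highest in brain.

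**Figure D1:**
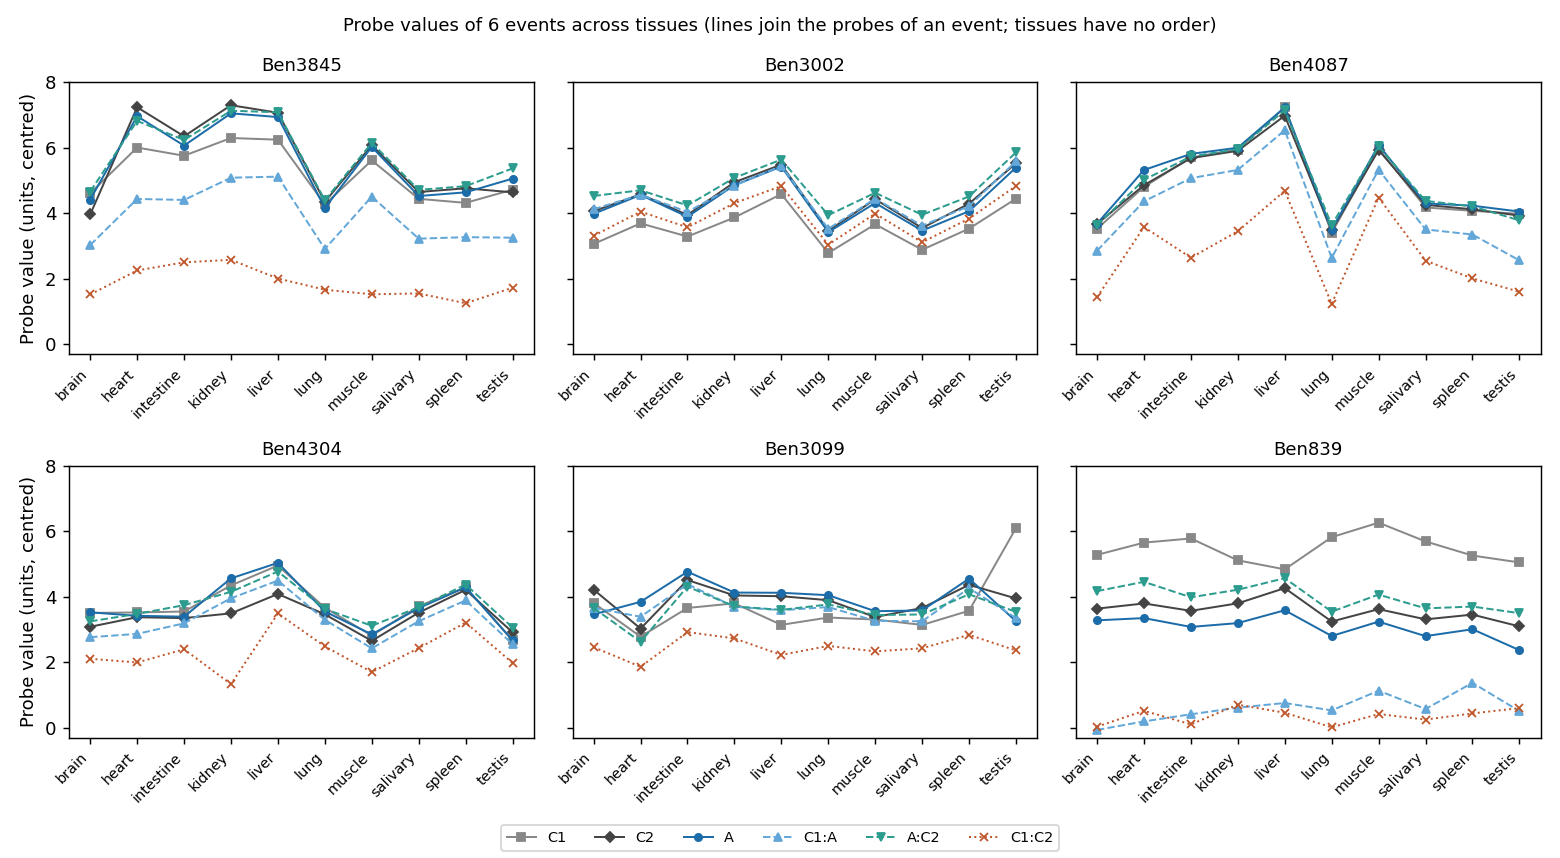
Centred probe values (vertical axis, units of the deposited scale) of 6 events in the 10 tissues (horizontal axis, 1 pooled sample each); lines only join the values of a probe. Ben3845 keeps C1:C2 at 2.58 or below while A reaches 7.05, Ben3002 has C1:C2 up to 4.83, Ben4304 shows a low C1:C2 of 1.33 in kidney, Ben3099 a C1 of 6.09 in testis, and Ben839 a C1:A probe of 1.37 at most.

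The exon-body probe A, which the rule did not use, also read high in most of these exons. It was at 2.1 or more in all 10 tissues in 108 of the 125 (86.4%), against 273 of the 454 broadly detected events that met neither index condition (60.1%). In the 77 broadly detected events with the index at -0.5 or less in all tissues, it did so in 7 (9.09%). No member had A below 2.1 in every tissue. Averaged over the tissues, A had a median of 3.53 among the members, 3.13 among the other 454 and 1.51 among the 77 skipped ones, whereas flank level was alike at 3.66, 3.53 and 3.65. A and the inclusion junctions read overlapping RNA on the same arrays, so this is a second reading and not an independent sample.

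The body index, A minus the flank level, puts this on the scale of each event. Its mean over the tissues had a median of -0.09 in the members, with quartiles of -0.32 and 0.19, compared with -0.35 in the other 454 events and -2.07 in the 77 skipped exons. It lay within 0.5 units of 0 in 97 members (77.6%), in 236 of the 454 (52.0%) and in 2 of the 77 (2.6%). A averaged at least 1 unit under the flanks in 7 members (5.60%), in 91 of the 454 (20.0%) and in 69 of the 77 (89.6%).

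**Figure D2:**
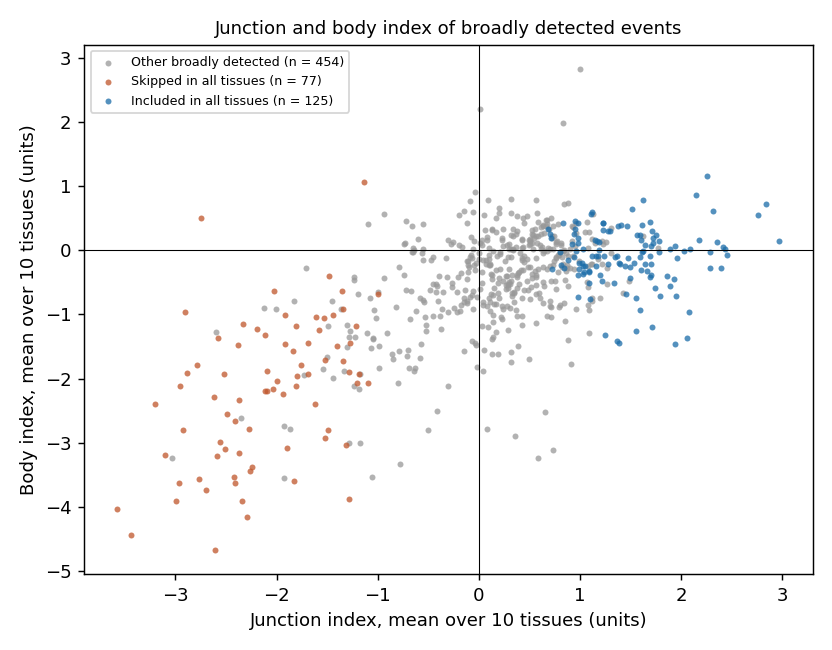
Each point is a broadly detected event, placed by its junction index (horizontal) and body index (vertical), both means over 10 tissues in units of the deposited scale. The 125 members (blue) lie at or above 0.69 on the horizontal axis, which the rule set. On the vertical axis, whose flank probes the rule used but whose A probe it did not, they lie mostly near 0. The 77 skipped exons (orange) centre on a body index of -2.07.

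The lowest body indices among the members, picked out after their values were seen, were -1.46 in Ben839 and -1.44 in Ben1821. In Ben839 the C1 probe read 4.83 to 6.26 and C2 3.09 to 4.26, with A at 2.37 in testis to 3.58 in liver. Its A:C2 junction read 3.50 to 4.56, but C1:A only -0.07 in brain to 1.37 in spleen, close to C1:C2 at 0.01 to 0.70. The positive index of Ben839 thus came mostly from A:C2. In Ben1821 A read from 0.89 in heart to 2.67 in testis under flank levels of 2.86 to 3.70.

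Both inclusion junctions carried the index in most members. In 70 of the 125 (56.0%) C1:A and A:C2 each exceeded C1:C2 by 0.5 or more in all tissues. In 34 only A:C2 did so, in 19 only C1:A, and in 2 neither did alone. C1:A was not above C1:C2 in at least 1 tissue in 9 members, and A:C2 in 5. In Ben2939 C1:A was below the median of all INT values (1.21) in all 10 tissues, and its A:C2 junction read 3.35 to 5.49. Ben2939 was picked out after its values were seen. Across tissues the 2 inclusion junctions of a member moved together, with a median Pearson's r of 0.90 over the 10 tissues (quartiles 0.72 and 0.97). The other 454 broadly detected events were similar, at 0.87 (quartiles 0.62 and 0.96), and the rule used both probes. Such correlations are descriptions over 10 points that share their arrays, and carry no p.

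The skipping junction was dim but seldom constant. Averaged over tissues it had a median of 1.86 in the members, 2.82 in the other 454 events and 3.52 in the 77 skipped exons. The 95th percentile of all INT values, 3.14 units, was used as a mark for a clearly bright probe. C1:C2 stayed at or below it in every tissue in 75 members (60.0%), against 23.3% of the other 454 events and 28.2% of all broadly detected ones. The rule favours a low C1:C2, so nothing is read from this. It exceeded the mark in 1 to 4 tissues in 43 members, in 5 to 9 tissues in 7 and in all 10 in none. The brightest skipping junctions, picked out after their values were seen, were those of Ben2999, at 5.66 in liver, and Ben4263, at 5.34 in heart.

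The A probe passed the same mark in all tissues in 33 members (26.4%), in 65 of the other 454 (14.3%) and in none of the 77 skipped exons. This count depends on the mark: 67 members passed at the 90th percentile of INT and 1 at the 99th. INT itself read like that of other events, with a median of 1.26 in the members, 1.33 in the other 454 and 1.14 in the skipped exons. INT was above the mark in all tissues in 2 members (1.6%) and in 7 of the other 454 (1.54%). The 2 members were Ben2767, at 3.35 to 4.86, and Ben1240, at 3.42 to 4.23. They were picked out after their values were seen.

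The transcripts that carry these exons varied widely between tissues. Flank level spanned 2 units or more between the lowest and the highest tissue in 45 members and under 1 unit in 19. This was not particular to the members. The median span was 1.73 units in the members, 1.65 in the other 454 events and 1.56 in the 77 skipped exons. A span of at least 1 unit was found in 106 of the 125 members and in 390 of the other 454. Flank level was highest in liver in 41 members, in testis in 27 and in kidney in 14, and lowest in salivary in 21, lung in 20 and testis in 18. Among the other 454 events liver was highest in 22.9%, testis in 23.8% and kidney in 9.03%, against 32.8%, 21.6% and 11.2% of the members. Salivary was lowest in 13.7%, lung in 5.07% and testis in 21.6% of these events, against 16.8%, 16.0% and 14.4% of the members.

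The exon followed its transcript through these changes. Within a member, A correlated with flank level over the 10 tissues with a median Pearson's r of 0.95 (quartiles 0.85 and 0.98), compared with 0.88 in the other 454 events and 0.29 in the skipped exons. It was 0.9 or more in 83 members (66.4%) and under 0.5 in 8 (6.4%), whereas 45.2% and 21.1% of the other events lay in these ranges. Events whose junction index fell below 0.5 in some tissue cannot be members, so nothing is read from this contrast. Inside the members the median r also differed. It was 0.91 in the 75 with C1:C2 above the INT mark in no tissue and 0.97 in the other 50. Among the 106 members whose flank level spanned at least 1 unit, A rose by a median of 0.99 units per unit of flank level (quartiles 0.88 and 1.13). The inclusion junctions rose by 0.99 (C1:A) and 1.0 (A:C2). These median slopes were not particular to the members. In the 390 other broadly detected events with such a span, A rose by 0.94 (quartiles 0.68 and 1.12). There C1:A rose by 0.91 and A:C2 by 1.0. In the 63 such skipped exons A rose by 0.15. The INT probe of the members did not follow the flanks, with a slope of 0.03 and a median r of 0.04.

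C1:C2 followed the flanks less steeply than A did. Its slope on flank level was 0.74 (quartiles 0.44 and 0.90) in the same 106 members, 0.80 (quartiles 0.52 and 1.01) in the other broadly detected events and 0.95 in the skipped exons. Its median r was 0.74, 0.81 and 0.93 in that order. The members' values mix dim and bright skipping junctions. In the 75 members with C1:C2 above the INT mark in no tissue, the median slope was 0.46 and r 0.58. Their median C1:C2 was 1.42. In the 50 members with C1:C2 above the mark in some tissue, the slope was 0.87, r 0.91 and median C1:C2 2.53. The rule used all of these probes, so the values are descriptions. Within members the junction index had a median r of 0.47 with flank level, and the body index one of -0.03.

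**Figure D3:**
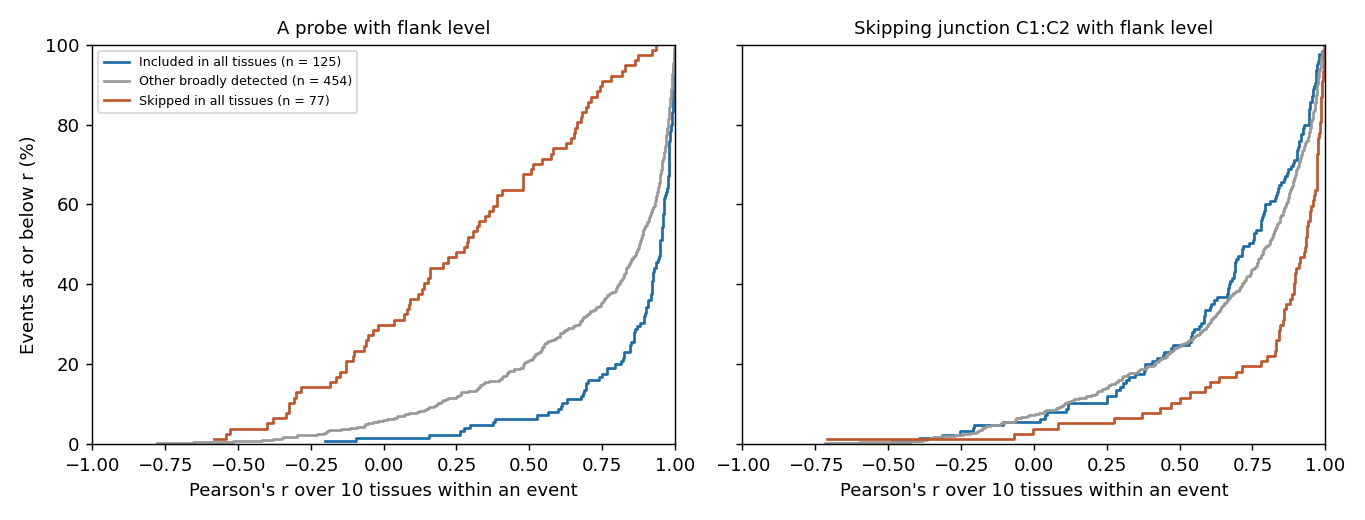
Cumulative share of events (vertical, %) against Pearson's r over the 10 tissues within an event (horizontal), for A with flank level (left) and for C1:C2 with flank level (right), in 125 members, 454 other broadly detected events and 77 skipped exons. The median r for A is 0.95, 0.88 and 0.29 in that order, and for C1:C2 it is 0.74, 0.81 and 0.93.

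Ben4087 shows this over the widest range of flank level among the members. Its A probe read 3.69 in brain, 5.32 in heart, 5.82 in intestine, 6.0 in kidney, 7.23 in liver, 3.50 in lung, 6.08 in muscle, 4.30 in salivary, 4.23 in spleen and 4.06 in testis. Its flank level ran from 3.44 in lung to 7.11 in liver, and its body index from 0.06 to 0.49, with 0.13 or less in all tissues but heart. Its C1:C2 probe was high where the transcript was high, at 4.69 in liver and 4.48 in muscle, and low in lung at 1.24. The index was lowest in heart, at 1.11, and highest in intestine, at 2.76.

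Ben1936, next in range of flank level, did not keep this proportion. Its flanks rose from 2.19 in testis to 5.68 in liver, whereas A moved only between 3.58 in heart and 5.82 in liver. Its body index therefore fell from 2.33 in testis and 1.95 in brain to 0.14 in liver. The narrowest ranges of the body index were 0.13 units in Ben1836 (-0.19 to -0.06) and 0.16 in Ben4188 (-0.61 to -0.45), although the flank level of Ben4188 ran from 3.17 in muscle to 5.54 in testis.

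Between tissues the body index moved less in the members than in the rest. The median SD over the 10 tissues was 0.23 units (quartiles 0.14 and 0.32), against 0.31 in the other 454 events and 0.56 in the skipped exons. The junction index, which the rule held above a floor, had a median SD of 0.36, 0.41 and 0.52 in these sets. A itself varied as much in the members as in the other events, with median SDs of 0.64 and 0.60. In the skipped exons A was dim, and its SD was 0.41. None of these differences between sets was tested, because events of an array are not replicates. An event whose junction index fell below 0.5 in any tissue cannot be a member. C1 and C2 also enter both the rule and the body index. The smaller spread of the body index in the members is therefore only a description of the chosen exons.

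Single tissues were then set against the median of the other 9, and a difference was counted as a call beyond 4 robust SDs of all such differences on the arrays. That was 1.53 units for the body index, 2.11 for a probe, 1.61 for the junction index and 2.15 for flank level. The body index was called lower in 2 members, where 7.32% of the broadly detected events had a lower call in some tissue, and higher in none, where 7.16% had a higher call. The rule kept out events whose junction index fell below its threshold in some tissue, so these counts are not read against the shares. In both members with a lower call a flank probe had the largest difference, and A was lower too. In Ben3099 the C1 probe read 6.09 in testis and 2.78 to 3.81 elsewhere, C1:A in testis was 3.35, within its range of 3.25 to 4.38 elsewhere, and the body index was -1.77 there against a median of 0.42. A was 3.25 in testis and 3.46 to 4.76 elsewhere. In Ben2772 the C2 probe read 5.81 in muscle and 5.84 in spleen and 2.68 to 4.34 in the other tissues. A:C2, which ends in the same exon, read 2.82 and 2.51 there and was not raised. C1:A read 1.41 in muscle and 0.64 in spleen, its lowest values, against 1.56 to 2.72 elsewhere, and A read 2.75 and 2.49 against 2.76 to 3.58. The body index was -1.94 in muscle and -1.95 in spleen.

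Such lone probes recurred in muscle and spleen. A lone probe was taken, after the values were seen, as one that was at least 1 unit above the median of the other tissues in both of a pair while at least 4 of the other 5 exon and junction probes were within 0.5 units of theirs or lower. Muscle and spleen had 4 in the members, while none of the other 44 tissue pairs had more than 1 and 40 had none. They were C2 of Ben2772 and the C1:A junctions of Ben2247 (2.24 and 2.29 units above), Ben4156 (1.79 and 1.84) and Ben1836 (1.05 and 1.12). C1:A enters the junction index, so the index of the last 3 exons in muscle and spleen includes these readings, whereas C2 does not enter it. Their part in the values was not tested. C2 of Ben2772, already seen before lone probes were defined, is 1 of the 4. It is also the probe counted for intestine with muscle and for intestine with spleen. Lone probes were not counted outside the members, so no share over other events can be set beside the 4. With muscle and spleen both left out, 144 events met the rule. The median r of A with flank level was then 0.95, and the median SD of the body index was 0.23.

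A was called higher in some tissue in 9 members, where 12.7% of the broadly detected events had such a call, and lower in 2, where 0.915% had one. After quantile normalization of the arrays the numbers were 4 and 1. Liver had 7 of the higher calls, with 4.42% of the broadly detected events called there, and kidney 2, where 1.68% were called. Intestine had 2 (0.762%), testis 2 (4.12%) and heart 1 (1.52%). In 8 of these 14 calls flank level was called higher too. Flank level was called higher in 8 members, against 8.38% of the broadly detected events, with 10 calls in all, and lower in none, against 0.457%. In these 10 the flanks were higher by a median of 2.34 units, A by 2.48, C1:A by 2.57, A:C2 by 2.50 and C1:C2 by 2.1. The body index differed there by a median of 0.03 and the junction index by 0.28. In the 7 calls of high flank level among the skipped exons A was higher by only 0.24 and C1:C2 by 2.24.

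The 4 largest A differences were those of Ben4087 in liver (2.93 units above the other tissues), Ben2999 in liver (2.76), Ben4263 in liver (2.75) and Ben1752 in liver (2.71). In Ben2999 the A probe read 3.98 in brain, 4.39 in heart, 4.65 in intestine, 6.32 in kidney, 7.15 in liver, 3.93 in lung, 3.31 in muscle, 3.11 in salivary, 4.92 in spleen and 5.58 in testis. Its C1:C2 probe ran alongside, from 2.04 in muscle to 5.66 in liver, with r = 1.0 against flank level. Its index stayed between 0.66 and 0.97, the narrowest range of the junction index among the members.

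In Ben4263 heart, kidney and liver were all high, with A at 7.10, 7.41 and 7.59 and at 4.06 to 5.88 in the other tissues. The skipping junction was brightest in heart, at 5.34, above 4.37 in kidney and 4.68 in liver, and C1:A in heart was 4.56, below 5.57 and 5.85. Its index was 0.63 in heart, 2.15 in kidney and 2.03 in liver. The body index in heart, 0.65, lay within its range elsewhere of 0.52 to 0.92.

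In Ben1752 the A probe read 1.04 in heart and 1.07 in brain, and 3.84 in kidney, 4.18 in liver and 4.08 in testis, while flank level was 3.30, 2.76, 4.82, 4.82 and 5.70 in the same order. The body index was between -2.26 in heart and -0.65 in liver, yet the junction index stayed between 1.19 and 1.69. The lower calls of A were in Ben3673 in testis, at 2.96 against a median of 5.26, and in Ben1920 in salivary, at 2.12 against 4.31. In Ben3673 C2 was lower by 2.08 units in testis and flank level by 1.46. In Ben1920 C2 was lower by 1.53 in salivary and A:C2 by 2.21, but C1 by only 0.32, and its INT probe read 6.43 there and 2.20 to 3.47 elsewhere.

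The junction index was called higher in 1 member, Ben4304 in kidney, and lower in none, where 7.01% and 7.93% of the broadly detected events had such calls. The rule used this index, so the counts are not read against these shares. A lower call inside the rule needs an index of at least 2.11 in the other tissues, and only 14 members had a median that high. In Ben4304 the index was 2.72 in kidney and 0.83 to 1.18 elsewhere. The larger part of the difference lay in C1:C2, which was lower than in the other tissues by 1.06 units and read 1.33, its lowest value. The mean of the inclusion junctions was higher by 0.59, with C1:A higher by 0.77 and A:C2 by 0.52. Outside the index, A was 1.04 and C1 0.80 higher. With lung left out of the comparison and the rule the call was lost, and with each of brain, heart, liver, muscle or spleen left out 2 exons were called.

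The rule used the junction index of every tissue, so its order among tissues is given as a description of the chosen exons. It was lowest in heart in 50 of the 125 members (40.0%), followed by salivary and testis with 14 each (11.2%). The other 454 events, which the rule did not hold above the threshold, had it lowest in heart in 86 (18.9%), and nothing is read from the difference. The index was highest in testis in 29 members (23.2%), in liver in 26 (20.8%), in kidney in 18 (14.4%) and in muscle in 3 (2.4%). In the other 454 events these shares were 22.0%, 20.9%, 10.6% and 5.07%, so testis and liver led in both sets. The median index of the members was 1.15 in heart, the lowest of the tissues, 1.24 in muscle and in salivary, and 1.64 in liver, the highest. The quartiles in heart, 0.74 and 1.57, overlapped those of each other tissue, such as 1.20 and 2.15 in liver. Of 51 broadly detected events under the threshold in a single tissue, 19 were under it in heart, 7 in brain and 6 in kidney.

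The skipping junction was high in heart, but also in kidney and liver. It was highest in liver in 27 members and in heart in 25. In heart C1:C2 was above the median of the other tissues in 90 of the 125 members, by a median of 0.27 units. Its median value there was 2.17, the highest of any tissue. In kidney and liver C1:C2 was also higher, by 0.32 and 0.31, and A was higher there too, by 0.56 and 0.63 against 0.11 in heart. Over all 3126 events C1:C2 was higher in heart by a median of 0.12, the largest such shift of any tissue, and the junction index lower by 0.06. The body index did not follow. In heart its median was -0.01, the highest of the tissues, and it was highest there in 30 members and lowest in 20. The cause of the lower index in heart was not tested. With heart left out, 153 events met the rule.

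**Figure D4:**
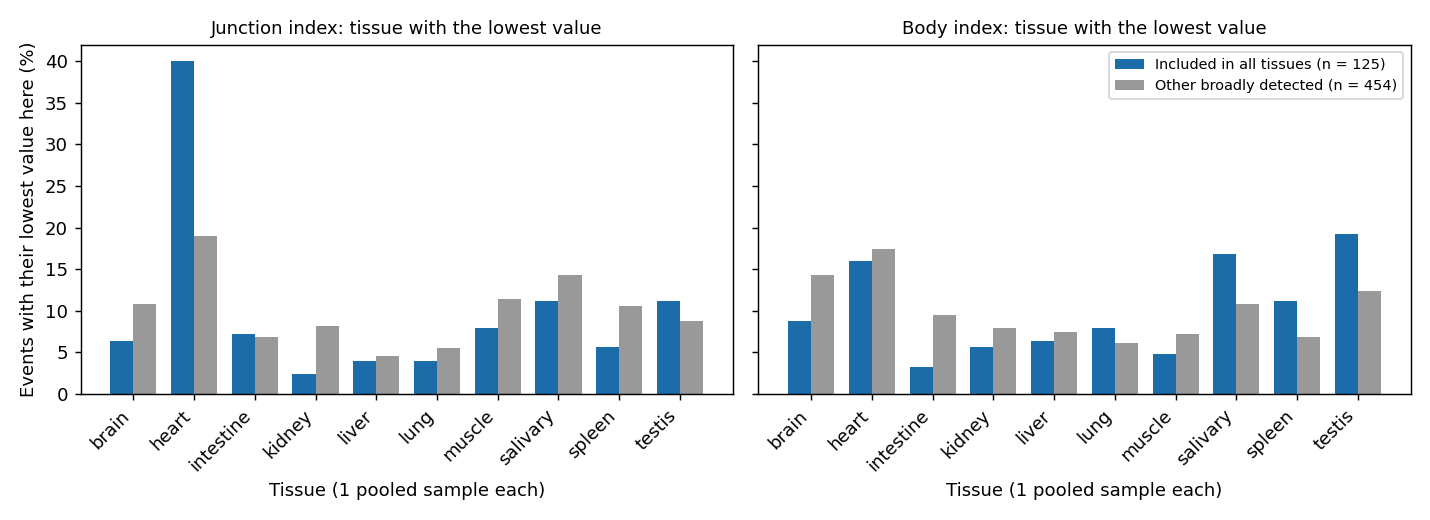
Percentage of events (vertical) whose junction index (left) or body index (right) was lowest in each tissue (horizontal, 1 pooled sample each), in the 125 members (blue) and the other 454 broadly detected events (grey). Heart holds the lowest junction index of 40.0% of the members and 18.9% of the other events, but the lowest body index of 16.0% and 17.4%.

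In the remaining tissues the medians of both indices lay close together. The members' median junction index was 1.5 in brain, 1.44 in intestine, 1.54 in kidney, 1.36 in lung, 1.38 in spleen and 1.5 in testis. Their median body index lay between -0.14 in brain and in salivary and -0.01 in heart, and the quartiles of all 10 tissues overlapped. Testis had the lowest body index in 24 members (19.2%) and salivary in 21 (16.8%), while lung had the highest in 1 (0.8%). In the other 454 events these shares were 12.3%, 10.8% and 2.64%, so lung was seldom highest in either set. Within a member the indices were only loosely related over tissues, with a median r of 0.14 between junction and body index. It was 0.38 in the other 454 events and 0.80 in the skipped exons. The sets were split by the junction index itself, so nothing is read from this difference.

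**Figure D5:**
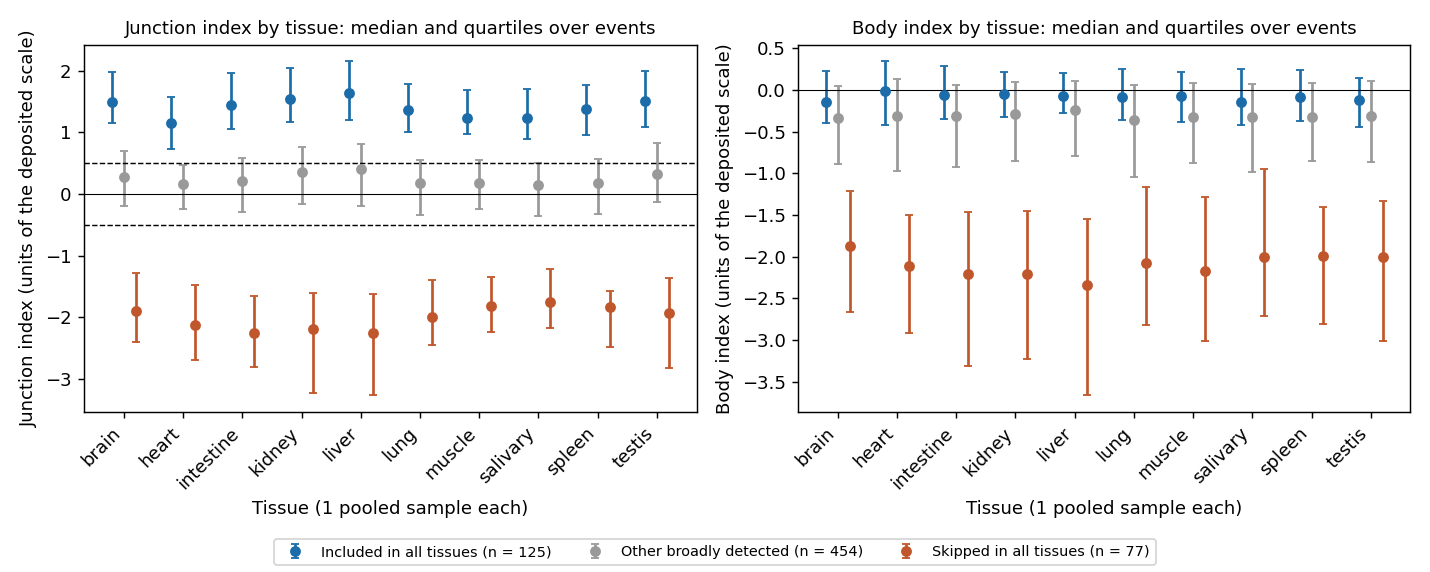
Median (points) and quartiles (bars) over events of the junction index (left) and the body index (right), in units of the deposited scale, for each tissue (1 pooled sample each) in the 125 members, the other 454 broadly detected events and the 77 skipped exons; dashed lines mark the thresholds of 0.5 and -0.5. The members' median junction index runs from 1.15 in heart to 1.64 in liver, and their median body index stays between -0.14 and -0.01.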

How the data were processed

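The samples were 10 tissues of CD1 mice with 1 pooled total RNA sample each. The values are a score deposited by the authors for 21882 probes per array, on a scale of unstated base. How the arrays were scanned, corrected for background and normalized is not given in the sources used here. Each array was centred on its median and the mean of the array medians was added back. The members, lists and summaries were chosen with earlier results of these data known.

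Junction index, flank level and body index were computed per event. A tissue was set against the median of the other 9, and calls lay beyond 4 robust SDs (median absolute deviation times 1.4826). A junction index call also needed the same sign of the body index. The fixed rule for named events took the extremes of the junction index, of the body index and of flank level over tissues, junction index calls, the 4 largest A differences and the events beside each threshold. With 1 sample per tissue no test was made and no p-value computed, and precision is limited by how many arrays there are. The table has no gene names, so no gene lists were used. The code for calling and selection was checked on simulated arrays with planted changes far larger than the noise. That check does not show how often a call near a threshold is false or missed. The scripts ran under Python 3.11.15 with matplotlib 3.10.9, pandas 2.3.3 and numpy 2.4.6.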

Additional observations from a re-analysis of the deposited data

How the results depend on the processing

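No paired analysis was possible because no tissue was sampled more than 1 time. Members were chosen anew under each alternative. The count of lowest indices in heart and leaving out muscle and spleen together were added after seeing the data. Looser and stricter settings change counts by construction, and the cause of the other shifts was not tested. C1:C2 often lay near the INT values, which limits how far a skipping junction can be read.

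As deposited 127 exons and after quantile normalization 130 met the rule, and 124 of each were among the 125 members. There were 208 members at a flank floor of 1.6, 60 at 2.6, 273 at an index threshold of 0 and 44 at 1. With a tissue left out there were 129 to 153. A was above the INT mark in all tissues in 65 members at an index threshold of 0, in 14 at 1, in 67 with the mark at the 90th percentile of INT and in 1 at the 99th, and with a tissue left out in 33 to 45.

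Higher calls of the junction index (1 member) numbered 2 at the floor of 1.6 and 2 at an index threshold of 0. They numbered 0 at an index threshold of 1, 8 with C1:A alone, 0 with A:C2 alone, 5 at 3 robust SDs and 0 at 5. With a tissue left out they numbered 0 (lung) to 2 (brain, heart, liver, muscle or spleen). Lower calls (0 members) numbered 1 with A:C2 alone and 4 at 3 robust SDs, and 0 with any tissue left out.

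Higher calls of A (9 members) numbered 4 after quantile normalization, 22 at the floor of 1.6, 5 at 2.6, 37 at an index threshold of 0, 4 at 1, 15 with A:C2 alone, 30 at 3 robust SDs, 4 at 5 and 5 against the mean of the other tissues. With a tissue left out they ranged from 7 to 19, with 19 without heart and 14 without kidney. Lower calls of A (2 members) numbered 1 after quantile normalization, 4 at an index threshold of 0, 1 at 1, 1 with C1:A alone, 7 at 3 robust SDs, 0 at 5, 1 against the mean and 0 without muscle and spleen. With a tissue left out they ranged from 0 (heart, muscle or spleen) to 3, with 1 without kidney, liver or salivary. The median SD of the body index was 0.217 to 0.239 and the median r of A with flank level 0.931 to 0.961 with a tissue left out, and r was 0.903 by Spearman.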
